A study of Mus musculus with 9 samples.

Results

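The 10 genes described here act in antigen presentation and the interferon response, and were followed across an early differentiation course of mouse embryonic stem (ES) cells. They were chosen by symbol, as B2m, H2-K1, H2-D1, Tap1, Tap2, Irf1, Bst2, Ifitm1, Ifitm2 and Ifitm3, and are 10 of the 18193 genes that the arrays measured with a probe set of 1 gene symbol. Each gene was read through its brightest such probe set, and further ones served as a check. Of the 10 genes, 8 reached a signal of 50 on at least 2 of the 9 arrays and were tested, while Tap1 and Tap2 stayed below that level and are given as values only.

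The study profiled ES cells in which doxycycline controls an always-active version of protein kinase A (PKA), which cyclic AMP normally switches on. It asked how PKA activity bears on early differentiation. Undifferentiated cells were kept with leukemia inhibitory factor (LIF) and 1 µg/ml doxycycline. The other cells were differentiated in serum medium without LIF and taken on days 0.5, 1.5, 2.5 and 3.5 (D0.5 to D3.5), either with 1 µg/ml doxycycline (Dox+) or without it (Dox-). Every combination of day and medium is 1 array of total RNA with no replicate, so the 4 days stand in for repeats when media are compared and the 2 media when days are compared, and every p-value reflects the spread between single arrays only. The labels do not say in which medium the kinase was on, nor name the ES cell line or whether it is a single clone, and all cells descend from a culture held in doxycycline.

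MHC class I molecules carry peptides from inside the cell to its surface, where killer T cells and natural killer cells read them. A polymorphic heavy chain (H2-K1 or H2-D1 here) pairs with the invariant light chain B2m, and peptides cut by the proteasome reach it through the transporter Tap1-Tap2 and a loading complex. Interferons raise most of these genes through transcription factors that include the IRF family, and Irf1 is both a target and a driver of that response. Bst2 (tetherin) holds budding enveloped viruses at the cell surface, and the Ifitm proteins block virus entry and are also abundant in pluripotent and early mesodermal or germline cells without infection. ES cells are known for low class I levels and a weak interferon response.

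The windows around the starts of these genes carry letters that interferon-linked and cyclic AMP-linked factors are known to read, and they are shown because the class I genes and Irf1 followed similar courses and Bst2 and the Ifitm genes other ones. RefSeq windows of assembly GRCm38.p6, from 250 bases before to 50 after a transcript's start, matched 9 of the 10 genes. H2-K1 and Irf1 have 2 windows each, of which 1 is shown. The transcript start was the outermost start of the gene record for the windows shown of B2m, H2-D1, Irf1, Bst2 and Ifitm3, but lay 286 bases inside the gene for H2-K1 and 647 for Ifitm1, as it did by 3725 for Ifitm2, whose window is not shown. Capitals mark the motifs described after them. The windows are those of B2m (chr2:122147437-122147736, plus strand), H2-K1 (chr17:34000284-34000583, minus strand), H2-D1 (chr17:35262844-35263143, plus strand), Irf1 (chr11:53769764-53770063, plus strand), Bst2 (chr8:71537423-71537722, minus strand), Ifitm1 (chr7:140967826-140968125, plus strand) and Ifitm3 (chr7:141010695-141010994, minus strand), each written from 5′ to 3′ along its gene.
B2m: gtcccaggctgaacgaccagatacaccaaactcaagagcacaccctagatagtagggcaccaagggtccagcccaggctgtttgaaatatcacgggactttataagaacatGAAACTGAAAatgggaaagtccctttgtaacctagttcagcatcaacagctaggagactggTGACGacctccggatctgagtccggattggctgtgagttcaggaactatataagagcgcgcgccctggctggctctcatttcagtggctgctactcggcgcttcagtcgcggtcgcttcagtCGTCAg
H2-K1: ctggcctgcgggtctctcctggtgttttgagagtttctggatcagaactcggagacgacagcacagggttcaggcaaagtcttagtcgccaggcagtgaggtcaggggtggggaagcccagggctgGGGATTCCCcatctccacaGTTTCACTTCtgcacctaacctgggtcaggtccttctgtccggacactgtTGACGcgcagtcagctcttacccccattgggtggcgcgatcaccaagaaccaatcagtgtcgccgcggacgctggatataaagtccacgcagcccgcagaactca
H2-D1: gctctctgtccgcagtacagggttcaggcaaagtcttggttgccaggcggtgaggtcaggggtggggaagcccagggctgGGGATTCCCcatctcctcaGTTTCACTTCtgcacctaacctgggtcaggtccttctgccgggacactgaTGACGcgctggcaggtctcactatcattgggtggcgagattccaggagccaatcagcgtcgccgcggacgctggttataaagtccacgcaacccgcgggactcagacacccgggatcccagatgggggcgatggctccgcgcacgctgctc
Irf1: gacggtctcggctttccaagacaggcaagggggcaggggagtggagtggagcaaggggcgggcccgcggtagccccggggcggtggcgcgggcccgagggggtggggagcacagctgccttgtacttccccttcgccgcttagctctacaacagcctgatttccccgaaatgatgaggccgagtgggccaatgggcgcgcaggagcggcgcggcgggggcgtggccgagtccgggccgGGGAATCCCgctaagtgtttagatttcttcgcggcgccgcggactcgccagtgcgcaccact
Bst2: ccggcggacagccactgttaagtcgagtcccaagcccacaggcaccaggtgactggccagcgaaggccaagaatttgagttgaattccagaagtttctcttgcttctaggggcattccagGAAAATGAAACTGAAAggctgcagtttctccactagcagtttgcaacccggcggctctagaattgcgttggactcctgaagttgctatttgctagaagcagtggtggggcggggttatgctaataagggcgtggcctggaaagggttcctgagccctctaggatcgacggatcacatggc
Ifitm1: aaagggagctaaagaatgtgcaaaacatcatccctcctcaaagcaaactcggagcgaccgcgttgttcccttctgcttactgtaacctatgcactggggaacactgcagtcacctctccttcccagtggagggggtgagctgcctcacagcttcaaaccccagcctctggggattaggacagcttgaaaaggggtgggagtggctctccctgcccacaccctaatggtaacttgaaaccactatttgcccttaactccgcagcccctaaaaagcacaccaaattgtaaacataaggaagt
Ifitm3: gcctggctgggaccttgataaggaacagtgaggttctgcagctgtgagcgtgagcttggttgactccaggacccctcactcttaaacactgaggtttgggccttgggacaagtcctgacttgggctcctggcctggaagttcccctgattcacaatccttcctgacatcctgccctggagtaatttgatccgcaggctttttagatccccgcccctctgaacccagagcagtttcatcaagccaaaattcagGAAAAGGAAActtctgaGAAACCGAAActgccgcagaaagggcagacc

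The core of the interferon-stimulated response element was searched as GAAA, any 2 bases and GAAA again, on either strand like all motifs here. It stood in the windows of 4 of 9 genes (B2m, Bst2, Ifitm2 and Ifitm3), against 3.44% of 32851 windows and 2.62% of those of tested genes. In B2m it lay at -139 to -130 from the transcript start, whose first base counts as 1 and the base before it as -1. Bst2 held 2 overlapping copies between -130 and -115, and Ifitm3 held 2 copies just after its start, at 3 to 12 and at 20 to 29. The class I genes H2-K1 and H2-D1 shared a related motif, GAA, any 2 bases and GAAAC, read on the opposite strand, which 1.73% of all windows held. Shortly before it, both carried GGGATTCCC, the letters of the NF-kB site of class I enhancers. Irf1 held the same letters on the opposite strand at -12 to -4, against 0.353% of all windows.

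The full cyclic AMP response element TGACGTCA stood in the windows of 0 of the 9 genes, against 1.79% of all windows. Its shorter form TGACG, which is part of the X box where CREB-family factors bind class I promoters, stood in B2m, H2-K1, H2-D1 and Tap1, but also in 20.8% of all windows and in 32.8% of those of tested genes. Ifitm1 held none of these motifs in its window, which does not cover the outermost start of the gene. The letters searched were chosen after the windows had been read, and a match describes letters, not a bound site.

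Signals are on a linear scale with a trimmed mean of 100 on every array. Differences are differences of log2(signal + 16), so that changes of dim genes come out too small. Per array, 41.6% to 44.2% of genes reached a signal of 50. RNA integrity, read as Actb signal at its 3′ end over that at its 5′ end, gave ratios of 1.60 to 1.98. Of 7 immune cell markers with a probe set, 6 stayed under 50 on every array, and the pan-leukocyte marker Ptprc never read above 5.1. Precision is limited by having 9 arrays.

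The light chain and both classical heavy chains were higher on D3.5 than on D0.5 in both media. In the fit over both media, 3 of the 8 tested genes rose between these days at a limma adjusted p under 0.05, against 11.8% of all 8716 tested genes, and 0 fell, against 10.2%. The 3 genes were B2m, Irf1 and H2-K1. The median difference was 0.82 over the 8 genes and 0.02 over all tested genes.

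B2m, the invariant light chain without which class I molecules do not reach the surface, read 79.7 in undifferentiated cells. On the Dox+ arrays of D0.5, D1.5, D2.5 and D3.5 it read 85.9, 207.0, 297.1 and 363.9, and on the Dox- arrays 58.4, 300.2, 355.1 and 362.7. The D0.5 arrays stayed near the undifferentiated level, every later array lay above both of them, and the media met on D3.5. The fitted rise from D0.5 to D3.5 was 2.12 ± 0.24 on the log2 scale (SE, 2 media; limma adjusted p = 0.00495), or 4.24-fold in Dox+ and 6.21-fold in Dox- as plain ratios of signals. A second probe set of nearly equal brightness read 53.2 and 72.5 on D0.5 (Dox+ and Dox-) and 310.8 and 234.6 on D3.5, so that it too was higher on D3.5 in both media.

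H2-K1, the heavy chain of the K molecule, read 91.6 in undifferentiated cells, the lowest of its 9 values. Along the Dox+ course it read 163.1, 255.4, 264.0 and 420.4, and along the Dox- course 146.1, 310.6, 283.6 and 245.5. It was thus above the undifferentiated level already on D0.5, by 0.74 and 0.59, and Dox- cells had their highest value on D1.5, whereas Dox+ cells had theirs on D3.5. The fitted rise was 0.99 ± 0.25 (SE, 2 media; limma adjusted p = 0.0375). That call was lost in 6 of 10 alternatives, with adjusted p up to 0.319 and a difference of 0.56 for the next brightest probe set; leaving out D2.5 gave 0.0584.

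H2-D1, the heavy chain of the D molecule, read 92.1 in undifferentiated cells. Its Dox+ values were 99.7, 117.4, 189.8 and 212.5, and its Dox- values 97.1, 143.7, 201.9 and 127.0. Both media lay above their D0.5 values from D1.5 on, but the fitted difference of 0.66 ± 0.24 did not pass (limma adjusted p = 0.0977). In the brightest probe set of each heavy chain the media lay furthest apart on D3.5, with Dox- minus Dox+ differences of -0.74 for H2-K1 and -0.68 for H2-D1, values that carry no test. The next brightest probe sets were furthest apart on other days, that of H2-K1 on D2.5 (-0.80) and that of H2-D1 on D1.5, with Dox- higher (0.89). All 3 probe sets of H2-K1 and all 4 of H2-D1 that reached a signal of 30 on some array were lower in Dox- than in Dox+ on D3.5. They were also higher on D3.5 than on D0.5 in both media. All 4 probe sets of H2-K1 and 7 of the 9 of H2-D1 are marked by the array maker as able to bind related sequences, so the heavy chains cannot be told apart from each other or from other class I genes with certainty.

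**Figure D1:**
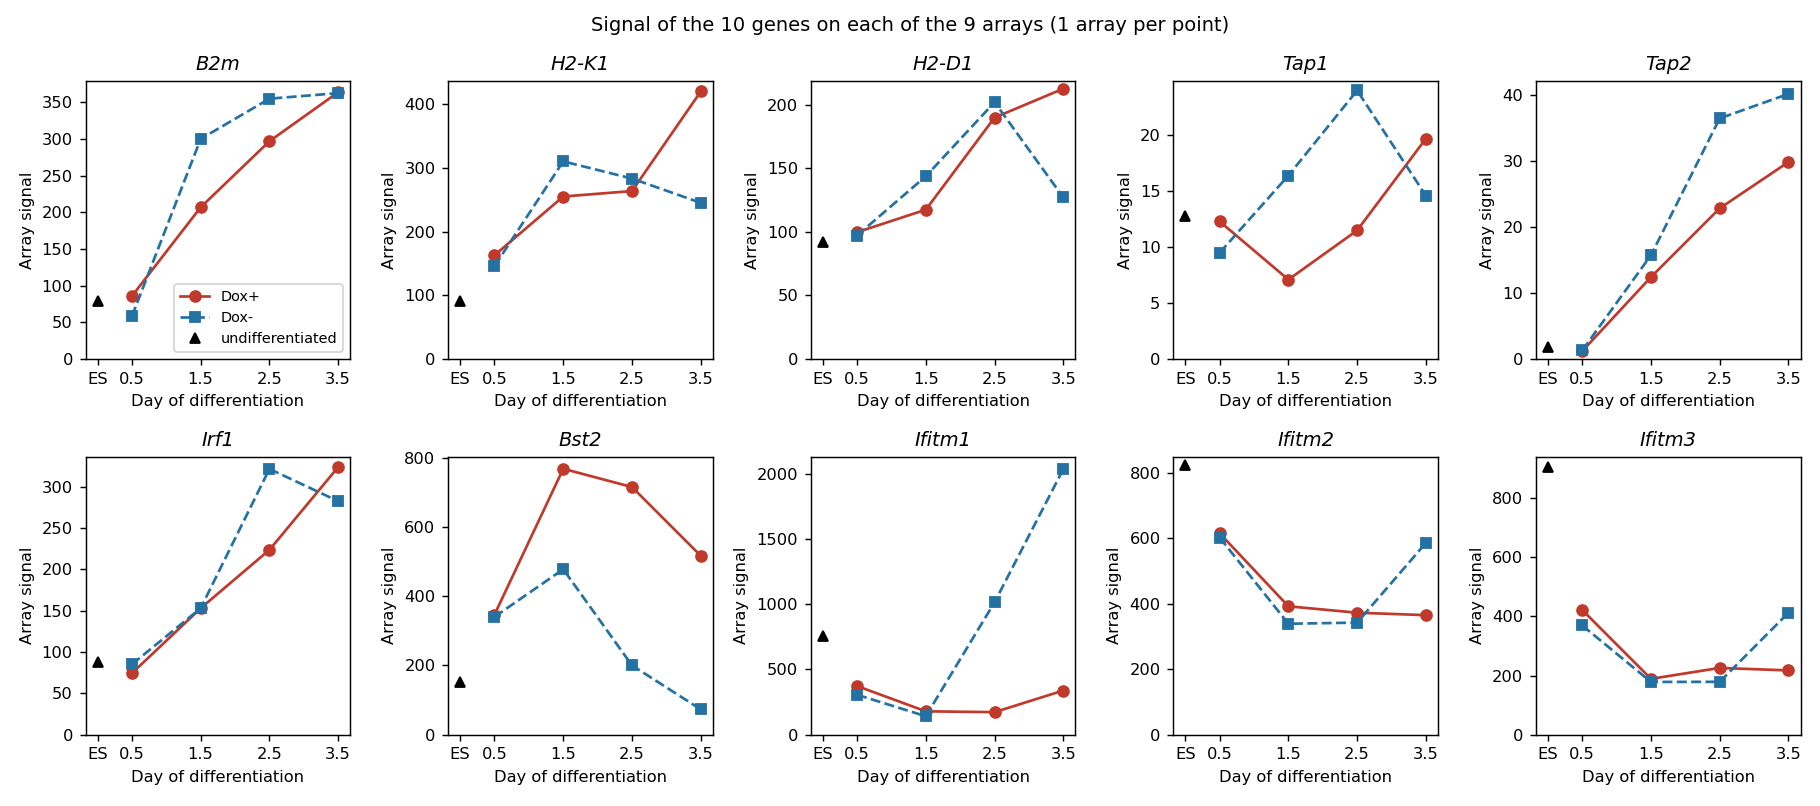
Array signal (linear scale, trimmed mean of 100 per array) of the 10 genes against day of differentiation, 1 array per point, with red circles for Dox+, blue squares for Dox- and a black triangle for undifferentiated ES cells. B2m and Irf1 climbed in both media, Bst2 parted the media from D1.5 on (767.6 in Dox+ and 477.6 in Dox-), and Ifitm1 reached 2034.5 on the D3.5 Dox- array alone.

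The peptide transporter stayed dim. Tap1 read 12.8 in undifferentiated cells, between 7.1 and 19.7 in Dox+ and between 9.5 and 24.0 in Dox-, and none of its 4 probe sets reached 30 on any array. Tap2, its partner subunit with a single probe set, read 1.9 in undifferentiated cells. It then read 1.2, 12.4, 22.8 and 29.8 in Dox+ and 1.3, 15.7, 36.4 and 40.1 in Dox-. Every array from D1.5 on lay above both D0.5 arrays, and Dox- lay above Dox+ on each day. Neither gene was tested, and at such signals a ratio says little.

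Other genes of the class I route, taken from lists of known members, moved in part with B2m. Of all tested genes, 11.8% were called higher on D3.5 than on D0.5 and 10.2% lower. The immunoproteasome list had 3 tested genes, and 3 of 3 rose from D0.5 to D3.5. Psmb8, an inducible catalytic subunit, read 1.0 and 0.6 on D0.5 and 53.5 and 153.2 on D3.5 (Dox+ and Dox-; 2.69 ± 0.42, limma adjusted p = 0.0108). Psmb10, another inducible subunit, rose by 1.37 ± 0.20, and Psme1, a subunit of the PA28 proteasome activator, by 1.63 ± 0.14, from 234.2 and 217.5 to 731.8 and 729.0. Of the 8 tested peptide loading genes, 2 rose: Erap1, the peptidase that trims peptides in the endoplasmic reticulum (2.45 ± 0.37, adjusted p = 0.00993), and Tapbp, the tapasin that bridges the transporter and the heavy chain (1.81 ± 0.26, adjusted p = 0.00917). The other 6 peptide loading genes did not pass, and the list's median was 0.17. In a list of 8 genes, a count of 2 is little above the 11.8% of all tested genes. Among the 3 other class I heavy chain genes tested, H2-Bl rose (1.51 ± 0.36, adjusted p = 0.0325) and Cd1d1, which presents lipids, fell by 1.57 on the log2 scale (adjusted p = 0.0147), while H2-Q2 differed by 1.04 ± 0.63 (adjusted p = 0.273). Psmb8, Erap1, H2-Bl and H2-Q2 reached 50 only on arrays later than D0.5, and Cd1d1 only on the undifferentiated and D0.5 arrays. Each thus entered the test through arrays where it was high.

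Of the 6 tested regulators of class I promoters, Creb1, which encodes a factor that PKA phosphorylates, rose by 0.87 ± 0.16 (limma adjusted p = 0.0159), and Nfyb, a subunit of the CCAAT-binding factor NF-Y, fell by 0.51 on the log2 scale (adjusted p = 0.0392). The median of that list was 0.06. A count of 1 higher and 1 lower of 6 is near the shares of all tested genes, 11.8% and 10.2%. Nlrc5, the class I transactivator, read at most 19.4 and was not tested. For the called genes named here that have a further probe set reaching 30, that probe set gave the same sign for the mean change over both media.

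Irf1, a transcription factor that activates class I and other interferon-responsive genes, rose in both media. It read 87.8 in undifferentiated cells, then 74.4, 153.0, 223.6 and 323.7 in Dox+ and 85.2, 153.0, 321.4 and 282.4 in Dox-. The D0.5 arrays lay close to the undifferentiated level, the media had equal values on D1.5, and every later array was above those of D1.5. The fitted rise was 1.74 ± 0.19 (SE, 2 media; limma adjusted p = 0.00479). Of the 3 other tested genes of interferon regulatory factors and their binding proteins, 0 were called in that comparison, with a median of 0.10. Among all tested genes 11.8% were called higher there and 10.2% lower. Irf3, the factor downstream of nucleic acid sensors, differed by 0.27.

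The interferon genes themselves stayed dim. All 8 interferon ligand genes with a probe set stayed under 50, and the highest read 9.6. Of the 8 tested genes of interferon receptors and signalling, Jak2, a receptor-bound kinase, was called higher on D3.5 (1.17 ± 0.31, limma adjusted p = 0.0441). The other 7 were not called, and the list's median was 0.14. A count of 1 of 8 is near the 11.8% of all tested genes called higher. Jak2 reached 50 only on arrays later than D0.5, so it entered the test through arrays where it was high. The receptor gene Ifnar1 differed by 0.44, Jak1 by 0.18 and the kinase gene Tyk2 by -0.78, with no call. Mavs and Tbk1, which relay nucleic acid sensing, differed by 0.15 and 0.36, also with no call.

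Among interferon-stimulated genes outside the 10, 13 of 38 with a probe set were tested, and 6 rose and 3 fell from D0.5 to D3.5, with a median of 0.25, beside 11.8% and 10.2% of all tested genes. Gbp2, a guanylate-binding GTPase, read 1.8 and 0.5 on D0.5 and 57.1 and 130.2 on D3.5 (Dox+ and Dox-; 2.59 ± 0.47, limma adjusted p = 0.0158). The immunity-related GTPase genes Irgm1 and Igtp rose by 1.98 ± 0.30 and 1.53 ± 0.26, and Ifi35 by 1.69 ± 0.42. Pml, the scaffold of nuclear bodies, moved the other way, from 344.7 and 351.8 to 81.1 and 38.0 (fell by 2.33 on the log2 scale, adjusted p = 0.00380). Tor3a fell by 1.64. Trim21 rose by 1.33 ± 0.23. Gbp2, Irgm1, Igtp and Trim21 reached 50 only on arrays later than D0.5, so they entered the test through arrays where they were high. Over all the class I and interferon lists together, 14 of 46 tested genes rose and 5 fell, with a median of 0.20, beside the same 11.8% and 10.2%. The share that fell is close to that of all genes, and the 14 that rose include genes that passed the filter in this way.

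**Figure D2:**
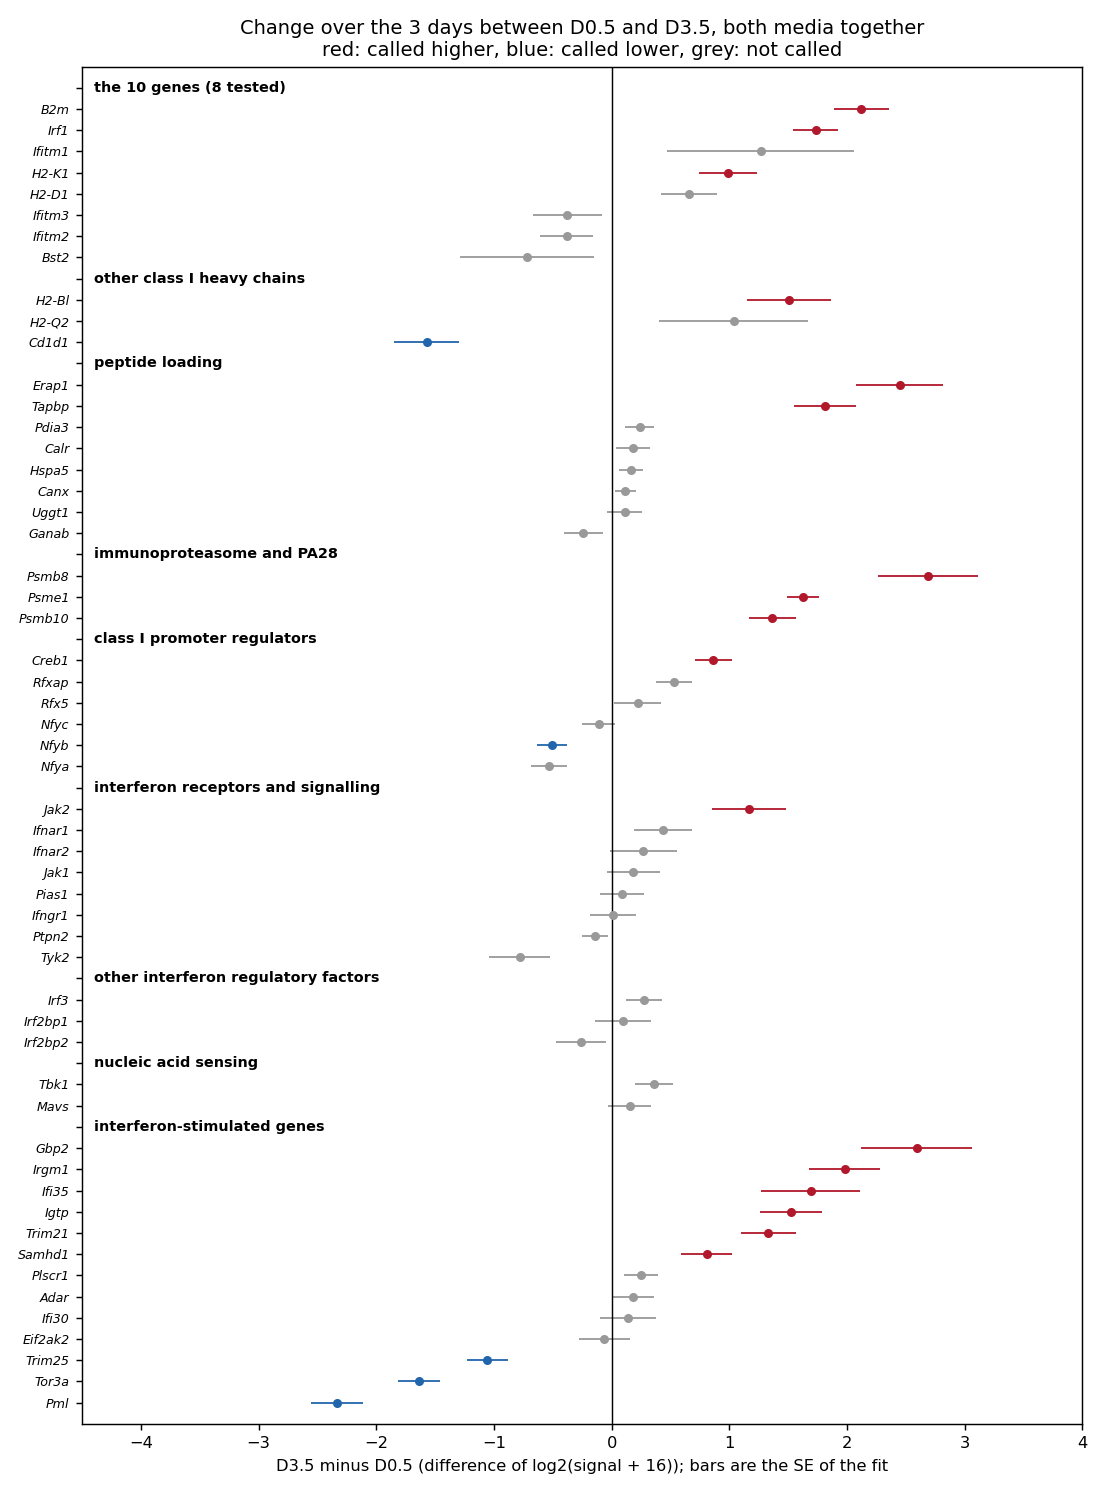
Fitted D3.5 minus D0.5 difference, as a difference of log2(signal + 16), for the 8 tested genes and for the tested genes of related lists, with bars for the SE of the fit over 2 media. Red points were called higher and blue points lower at a limma adjusted p under 0.05, and grey points were not called. B2m (2.12), Irf1 (1.74) and H2-K1 (0.99) are the red points in the top block, and Pml (-2.33) lies furthest to the left of all genes shown.

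Levels of other cell types' markers moved over the same days. The summed signal of 6 ES cell markers was 8665 and 8905 on D0.5 (Dox+ and Dox-) and 5005 and 1309 on D3.5. That of 5 nascent mesoderm markers went from 95.1 and 117.9 to 1611 and 2844, and that of 7 fibroblast markers from 44.4 and 40.2 to 167.5 and 375.7. The sum of 6 trophoblast markers, of which Eomes is also in the mesoderm list, went from 116.9 and 119.1 to 1017 and 1711, and that of 6 extraembryonic endoderm markers from 81.5 and 78.3 to 135.5 and 648.6. Some sums rest on few of their markers, and Eomes alone read 911.4 and 540.3 on D3.5. Single markers also went against their sum. The ES cell marker Nanog went from 913.9 to 1886.6 in Dox+, and the fibroblast marker Dcn from 9.9 to 8.2 in Dox-. The summed signal of the 7 immune markers was highest in undifferentiated cells, at 140.4, and lowest in the D3.5 Dox- cells, at 30.8, where B2m read 362.7. In bulk RNA, a larger share of cells with a gene on and more RNA per cell cannot be told apart, and the part of these markers' cells in the rises was not tested.

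No difference between the media shared by all 4 days was called for any of the 8 tested genes, nor for any other gene. In the limma fit with the day as a block, 0% of 8716 tested genes were called, while 1026 had an unadjusted p under 0.05, among them 1 of the 8 tested genes, Bst2. The change of the medium difference with day likewise gave 0% called, with 736 genes at an unadjusted p under 0.05, 2 of them Bst2 and Ifitm1. For B2m, H2-K1, H2-D1, Irf1, Ifitm2 and Ifitm3 the fitted Dox- minus Dox+ difference over the 4 days lay between -0.13 and 0.12, with SEs of 0.13 to 0.21. Bst2 and Ifitm1 stood apart on the later days, and a fit of 1 common medium difference for the D2.5 and D3.5 pairs describes them. That fit was chosen with these values known, so its p-values are only a description. It called 1 of the 8 genes higher in Dox-, against 2.83% of all tested genes, and 1 lower, against 4.35%.

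Bst2, the antiviral tether, was the gene lower in Dox-. It read 152.4 in undifferentiated cells and 346.5, 767.6, 714.8 and 516.5 along the Dox+ course, against 340.3, 477.6, 200.2 and 73.3 along the Dox- course. The media nearly coincided on D0.5, Dox+ lay above Dox- on each of the 3 later days, and the D3.5 Dox- array had the lowest of the 9 values. The Dox- minus Dox+ difference was -0.02, -0.67, -1.76 and -2.58 from D0.5 to D3.5, the last a 7.05-fold ratio of signals. On D2.5, 4.45% of tested genes were at least 2-fold lower in Dox-, and 4.8% on D3.5. Over 4 days the fitted difference was -1.26 ± 0.40 (SE, 4 days; lower in Dox- on 4 of 4 days; limma adjusted p = 0.416), and for D2.5 and D3.5 it was -2.17 ± 0.26 (adjusted p = 0.00703). In both media Bst2 was highest on D1.5 and lower on each later day, but the net difference between D3.5 and D0.5 was 0.55 in Dox+ and -1.996 in Dox-. Of all tested genes, 1.3% had net differences of opposite sign and at least 0.5 in each medium. The fitted steady change with day was -0.87 ± 0.30 per day and did not pass (limma adjusted p = 0.576).

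Ifitm1, a family member known from early mesoderm and germ cells, was the gene higher in Dox-. It read 756.6 in undifferentiated cells, and 373.2, 179.7, 173.3 and 339.0 in Dox+ against 306.4, 142.1, 1014.8 and 2034.5 in Dox-. Up to D1.5 the media ran together, with Dox- slightly below, and on D2.5 and D3.5 the Dox- arrays lay above every other array. The difference on those days was 2.45 and 2.53, or 5.86-fold and 6.001-fold as ratios of signals, and 3.41% and 4.13% of tested genes exceeded a 2-fold difference in this direction. The fit of both days gave 2.49 ± 0.16 (SE; limma adjusted p = 0.00135). Over all 4 days the difference was 1.10 ± 0.56 (higher on 2 of 4 days; adjusted p = 0.449), and the change with day 1.12 ± 0.45 per day (adjusted p = 0.579).

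Markers of several other cell types moved on the same arrays as Ifitm1. On D2.5 the summed signal of the nascent mesoderm markers was 78.5 with doxycycline and 5420 without, and on D3.5 it was 1611 and 2844. Ifitm1 itself read 173.3 with doxycycline and 1014.8 without it on D2.5, and its D3.5 signals were 339.0 and 2034.5. The extraembryonic endoderm sum of D2.5 was 109.3 with doxycycline and 549.8 without it. Its D3.5 values were 135.5 and 648.6. The trophoblast sum was 83.5 and 2217 on D2.5, of which Eomes, also counted in the mesoderm sum, read 42.2 and 1807.8. Krt7 went against it on that day, at 23.9 and 11.4. The germ cell sum, over 5 markers, was 203.8 and 234.7 on D2.5 before it was 140.0 and 443.5 on the last day. The summed ES cell marker signal, set beside Bst2, was 4564 (Dox+) and 3503 (Dox-) on D2.5. On D3.5 it was 5005 and 1309, and it was 12760 in undifferentiated cells, where Bst2 read 152.4. The ES cell marker Klf4 went against that sum on D2.5, at 30.1 (Dox+) and 71.0 (Dox-), and on D3.5, at 34.0 and 139.6. Nanog did so on D2.5, at 826.3 and 1324.0, and the dim Esrrb on D3.5, at 4.7 and 11.1. Sox2 read 1508.2 and 284.0 on D2.5, so that the sum of that day rests largely on this marker. The part of these marker groups in the 2 results was not tested.

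Ifitm2 and Ifitm3, the neighbours of Ifitm1 in the family, shared its fall up to D1.5 but not its rise on the D2.5 Dox- array. From D2.5 to D3.5 in Dox-, Ifitm1 rose by 0.99, Ifitm2 by 0.75 and Ifitm3 by 1.14. Ifitm2 read 825.1 in undifferentiated cells, 615.5, 392.5, 372.9 and 365.5 in Dox+ and 602.5, 339.2, 342.7 and 586.1 in Dox-. Ifitm3, which restricts virus fusion in endosomes, read 903.8, then 422.0, 189.1, 226.1 and 217.6 in Dox+ and 369.8, 178.6, 179.1 and 412.8 in Dox-. Both had their highest value in undifferentiated cells and were lower on D1.5 than on D0.5 in both media, and on D3.5 the Dox- array alone was back near its D0.5 level. On D3.5 Dox- exceeded Dox+ by 0.66 for Ifitm2 and 0.88 for Ifitm3, under 2-fold in both cases. Neither passed in the fit of the later days (0.27 ± 0.19, limma adjusted p = 0.428, and 0.28 ± 0.26, adjusted p = 0.545). Without D2.5 the value for Ifitm3 is that of D3.5 alone, with 1 array per medium (0.88), and its limma adjusted p of 0.0454 takes the spread from the other days. The 4 other Ifitm genes with a probe set, Ifitm5, Ifitm6, Ifitm7 and Ifitm10, read at most 36.1.

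**Figure D3:**
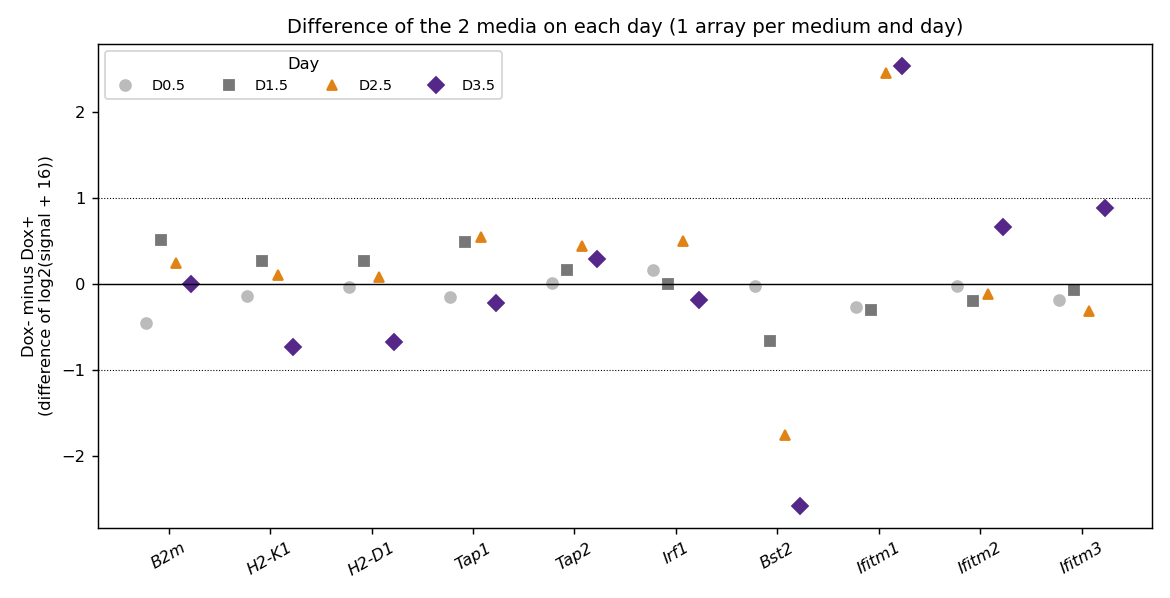
Dox- minus Dox+ difference of log2(signal + 16) for each of the 10 genes on each of the 4 days, 1 array per medium and day, with dotted lines at a 2-fold difference on that scale. Bst2 lies below the lower line on D2.5 (-1.76) and D3.5 (-2.58) and Ifitm1 above the upper line on the same days (2.45 and 2.53), while every value of the other 8 genes lies between the lines.

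Bst2 and the Ifitm genes already differed from undifferentiated cells on D0.5. From undifferentiated cells to D0.5, Bst2 was higher by 1.11 in Dox+ and 1.08 in Dox-, and 1.15% of tested genes were at least 2-fold higher on both arrays. Ifitm3 was lower, by differences of -1.07 and -1.25, where 0.918% of tested genes were at least 2-fold lower on both. Ifitm1 differed by -0.99 and -1.26 and Ifitm2 by -0.41 and -0.44. B2m differed by 0.09 and -0.36, H2-D1 by 0.10 and 0.07 and Irf1 by -0.20 and -0.04. These are differences from 1 undifferentiated array and carry no test, and that culture also had LIF and other medium.

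A few interferon-stimulated genes outside the 10 were far lower on D0.5 than in undifferentiated cells, and they are named here after their values were seen. Of the 38 with a probe set, 4 (10.5%) were at least 2-fold lower on both D0.5 arrays, against 0.72% of all 18193 genes, and 0 were 2-fold higher on both. Oas1a, an enzyme that senses double-stranded RNA, read 117.8 in undifferentiated cells and 40.2 and 32.2 on D0.5 (Dox+ and Dox-). Xaf1 read 103.1, then 5.1 and 2.8. Ifi35 read 63.1, then 11.9 and 11.2, and had its highest value, 116.7, on the D3.5 Dox- array. Parp14 read 52.5, then 17.1 and 15.

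Over the 9 arrays the 8 tested genes formed loose groups, described here by Pearson's r of log2(signal + 16) across the arrays of the course. B2m ran with Irf1 (r = 0.93), H2-K1 (0.87) and H2-D1 (0.84), Ifitm2 with Ifitm3 (0.97), and Bst2 against Ifitm1 (-0.94). Ifitm1 ran less closely with Ifitm2 (0.45) and Ifitm3 (0.47), and B2m hardly with Bst2 (0.05). The tested genes outside the 10 most like each were found by the same measure. They were Asap2, Fam107b and Antxr1 for B2m (0.99 each), Hdgf, Slc25a22 and Fzd2 for H2-K1 (0.98 each), and Cisd2, Nefm and Nes for H2-D1 (0.97, 0.96 and 0.95). Irf1 was most like Cldn12, Fam174a and the proteasome activator gene Psme1 (0.98, 0.98 and 0.97). Bst2 was most like Pla2g12a, Bcl11b and Mtcl1 (0.99 each), and Ifitm1 most like Commd3, Nt5dc3 and Tiam1 (0.99, 0.97 and 0.96). Ifitm2 was most like Capns1, B3galnt1 and Mbd2 (0.99, 0.98 and 0.96), and Ifitm3 most like Esyt1, Grb2 and Hbegf (0.98, 0.97 and 0.96). All these values rest on the same 9 arrays, and they were picked as the highest among 8716 genes.

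**Figure D4:**
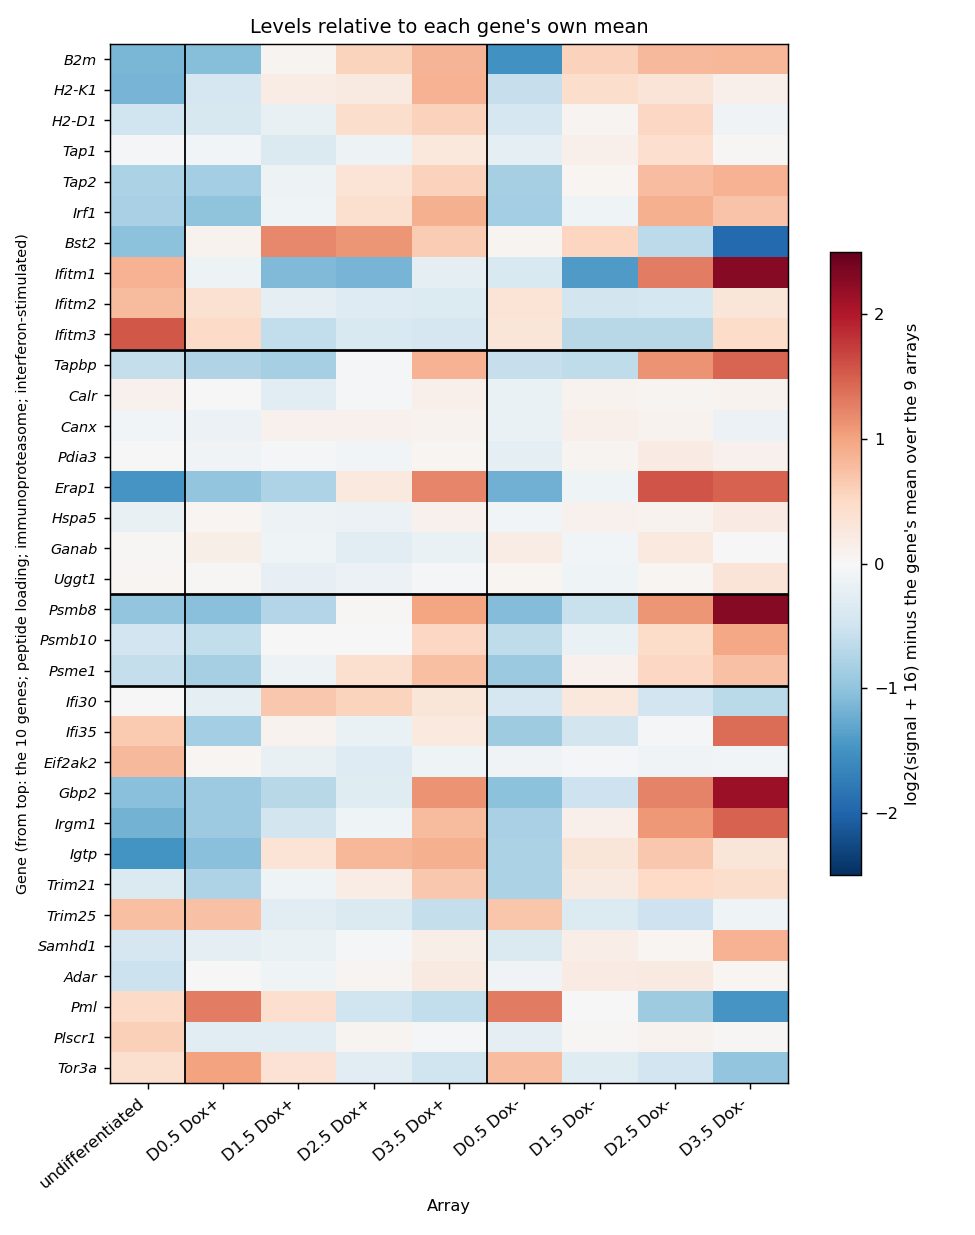
Level of each gene on each of the 9 arrays as log2(signal + 16) minus that gene's own mean over the arrays (red above, blue below), for the 10 genes and for the tested genes of peptide loading, the immunoproteasome and the interferon-stimulated list. B2m, Irf1, Tapbp, Erap1, Psmb8 and Gbp2 are blue on the undifferentiated and D0.5 arrays and red on both D3.5 arrays, while Ifitm3 and Pml are red on the undifferentiated array.

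Few genes of the class I and interferon lists outside the 10 were called in the description of D2.5 and D3.5. Of the 46 tested, 3 were higher and 2 lower in Dox-, with a median of 0.09, beside 2.83% and 4.35% of all tested genes; the lower calls are at the share of all genes. Psmb8 (1.18 ± 0.24, limma adjusted p = 0.0329), Gbp2 (1.27 ± 0.26, adjusted p = 0.0343) and Tapbp (0.87 ± 0.19, adjusted p = 0.0380) were higher. H2-Q2, a nonclassical heavy chain gene, had D2.5 signals of 112.1 (Dox+) and 8.7 (Dox-) and D3.5 signals of 56.8 and 5.0 (-2.08 ± 0.28, adjusted p = 0.00888). Ifi30, the lysosomal thiol reductase of antigen processing, was also lower (-1.01 ± 0.17, adjusted p = 0.0167). These p-values too come from the fit chosen with the values known. H2-Q2 passed the signal filter only through its Dox+ arrays of D2.5 and D3.5, where it was high. Psmb8 and Gbp2 passed it only through arrays of the same days. The calls of these genes thus rest on the arrays that let them into the test.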

How the data were processed

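Expression was measured on 9 Affymetrix arrays, 1 for each group that the labels give. The deposited table holds intensity values of probe sets (linear scale), made with GCOS, Affymetrix's array software, according to the submitters' processing notes. The authors' intensity scaling to an average of 100, per the labels, was checked: without the top and bottom 2% of probe sets, each array averaged 100. For the software version, background correction and genome build, the sources used here give nothing. Scanner files and a genome were not used here.

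Probe sets number 45101, of which 34945 carry 1 gene symbol, 932 several and 9224 none here; for 34741 the symbol was updated by gene ID to RefSeq GRCm38.p6. Control probe sets were left out, as were those with several symbols, 3 of which name a gene of this report. The 10 genes have 25 probe sets with 1 symbol, and 4 of the genes have more than 1. Tests ran on log2(signal + 16) for 8716 genes (signal of 50 or more on 2 or more arrays), with limma 3.58.1 in R 4.3.3 (lmFit and trended eBayes) on the 8 differentiating arrays and Benjamini-Hochberg adjustment over all these genes. The comparison of media took the day as a block, and that of days took the medium as a block (3 residual degrees of freedom). The change with day was the product of medium and numeric day (4 degrees of freedom). Another fit took a common medium difference on the D2.5 and D3.5 pairs. Single arrays were compared without a test. Fits were tested on simulated data.

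The 10 genes, the lists and the fits were chosen with earlier results of these data known. Named genes are the 10, and from each list those called in a fit (at most 6) and the 2 with the largest difference in the comparison of days and in that of media over 4 days. Also named are, for each tested gene spanning at least 1 on the log2 scale, the 3 genes most like it. Alternatives were the pseudocount (1 and 64), the filter (100 and none), quantile normalization, median centring, an untrended prior, the next brightest probe set, leaving out each day and, for media over 4 days, no day block.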

Additional observations from a re-analysis of the deposited data

Results flagged for a closer look

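The net difference of Bst2 between D0.5 and D3.5 had opposite signs in the 2 media, although Bst2 was highest on D1.5 and lower on each later day in both. From D0.5 to D3.5 it differed by 0.55 on the log2(signal + 16) scale in Dox+ cells, from 346.5 to 516.5, and by -1.996 in Dox- cells, from 340.3 to 73.3. Each direction rests on 1 array per day and medium, and the difference between the 2 media's net differences was not tested by itself. The fitted steady change of the medium difference with day, over all 4 days, was -0.87 ± 0.30 per day (limma adjusted p = 0.576). Of the 8716 tested genes, 113 (1.3%) had net differences of opposite sign and at least 0.5 in each medium.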

How the results depend on the processing

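The rises of B2m and Irf1 from D0.5 to D3.5 kept their direction and their call under every alternative run (limma adjusted p between 0.00439 and 0.0116, and between 0.00405 and 0.0107), and so did the D2.5 and D3.5 differences of Bst2 (0.00391 to 0.0329) and Ifitm1 (0.000843 to 0.0109). The rise of H2-K1 lost its call, at an adjusted p of 0.0540 with no signal filter, 0.0607 with quantile normalization, 0.0589 with median centring, 0.0504 with no trend, 0.319 with the next brightest probe set (0.56) and 0.0584 without D2.5. The cause was not tested. Array medians differed by 0.10 between D3.5 and D0.5, which median centring removes, while the median difference of single genes was 0.02. Without D2.5, the fit of the later days rests on D3.5 with 1 array per medium and takes its spread from the other days; there Ifitm3 had 0.88 (adjusted p = 0.0454).

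The count of genes called between D0.5 and D3.5 was 1917, and 1228 with the next brightest probe set. In the fit of the later days it was 626, and 389 with that probe set; leaving out a day in turn gave 228 to 791, the lowest without D0.5 and the highest without D1.5, with 328 without D3.5. Both other fits called 0 genes under every alternative. With the next brightest probe set, 3 uncalled values changed sign: H2-D1 over 4 days (0.18), B2m in the change with day (-0.25) and B2m on the later days (-0.088).

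Leaving out a day in turn also turned uncalled differences of media. Over 4 days the values ran from -0.071 to 0.25 for B2m, from -0.26 to 0.074 for H2-K1, from -0.21 to 0.10 for H2-D1, from -0.0081 to 0.22 for Irf1, from -0.12 to 0.17 for Ifitm2 and from -0.19 to 0.21 for Ifitm3. The change with day ran from -0.25 to 0.35, -0.50 to 0.12, -0.47 to 0.058, -0.11 to 0.17, -0.043 to 0.43 and -0.064 to 0.48 for the same genes in that order. On the later days they ran from -0.0046 to 0.25, -0.74 to 0.10, -0.68 to 0.082, -0.19 to 0.49, -0.12 to 0.66 and -0.31 to 0.88. The comparison of media paired arrays by day, and without the day block it also called 0 genes. With 1 array per group, no value has a replicate check, and dim genes such as Tap1 and Tap2 lie near the level where signals carry little information.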

Other observations

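Class II genes of antigen presentation stayed dim throughout. The highest signal of the 5 with a probe set was 32.1. The undifferentiated array also stood out for Ddx58, the RNA sensor RIG-I, named after its values were seen: it read 148.7 there, 36.6 and 49.7 on D0.5 (Dox+ and Dox-), and 23.2 and 13.9 on D3.5. H2-M3, a nonclassical class I gene that presents formylated peptides and was also named after its values were seen, read 9.6 in undifferentiated cells and between 13.4 and 33.3 on the 8 differentiating arrays.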
